A study of Mus musculus with 9 samples.

Results

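Fibroblast growth factors (FGFs) are secreted proteins by which one group of cells instructs its neighbours, and the developing cochlear duct uses several of them. The 7 ligand genes followed here are Fgf3, Fgf8, Fgf9, Fgf10, Fgf16, Fgf18 and Fgf20. They were chosen by name as secreted FGF ligands of the duct, and they are 7 of the 54232 genes counted in the RNA sequencing of cochlear ducts from embryos with and without Prdm16. PRDM16 is a transcriptional regulator made in Kölliker's organ, the columnar epithelium on the medial side of the future organ of Corti.

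A secreted FGF is held near the cell surface by heparan sulfate and binds an FGF receptor, a tyrosine kinase that signals through the MAP kinase pathway and switches on feedback genes such as Dusp6, Spry2 and Etv4. Fgf9, Fgf16 and Fgf20 form one subfamily of close relatives. Fgf20 is the ligand of the prosensory domain, the strip of progenitors that gives rise to hair cells and supporting cells, and Fgf9 is made in the non-sensory epithelium and signals to the surrounding mesenchyme. Fgf3 and Fgf10 belong to another subfamily, act together in forming the otic vesicle, and Fgf10 marks Kölliker's organ in the duct. Fgf8 and Fgf18 come from a further subfamily: Fgf8 is the ligand of inner hair cells that instructs pillar cells, and Fgf18 is best known from the growing skeleton. Fgf16 is best known from the developing heart.

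The study asked how loss of Prdm16 changes RNA in the duct. Each of the 9 libraries came from the microdissected cochlear ducts of both inner ears of a single mouse embryo at E14.5, with 3 embryos of each genotype. Null embryos were Prdm16 cGT/cGT, heterozygotes were Prdm16 cGT/+ and wild-type (WT) embryos were Prdm16 +/+. The cGT allele is a gene trap null allele carried in all tissues, the strain was kept on FVB/NJ, and the embryos came from matings of heterozygotes. The RNA is that of the whole dissected duct, so that a lower level from fewer cells of a type and one from less RNA per cell cannot be told apart.

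Libraries held 24095322 to 30819118 gene counts each. Levels are given as CPM (counts relative to library size) after TMM normalization, which scales each library by its bulk of genes. Prdm16 itself stood at 224.3, 198 and 184.6 CPM in the WT libraries, at 150.7, 122.6 and 140.7 in the heterozygotes and at 23.7, 19.1 and 27.4 in the null, so that every library fell in the order of its labelled gene dose. The counts are per gene and do not show which exons the remaining Prdm16 reads come from. Defining genes of the duct epithelium were present throughout, with a summed level of 1389 to 1902 CPM. Genes of periotic mesenchyme varied most: their summed level was 583.1, 1079 and 113.7 CPM in the WT libraries, 52.3 to 99.7 in the heterozygotes, and 63.1, 36.0 and 1450 in the null. Null embryo 3 and WT embryos 1 and 2 thus carried more mesenchyme RNA than the other 6. Null embryo 3 also held more RNA of neuron genes (29.0 CPM against 4.46 and 5.38 in the other null libraries), endothelium (40.6 against 5.28 and 2.35) and hair cells (207.5 against 148.4 and 135.7). The endothelium list was at 70.5, 57.3 and 2.62 CPM in the WT libraries and at 2.96 to 5.36 in the heterozygotes. Blood genes summed to 65.2 to 187.1 CPM in WT, 23.5 to 44.4 in heterozygous and 52.6 to 94.2 in null libraries, so that heterozygotes lay below both other genotypes. Melanocyte genes summed to 54.8 to 131.6 CPM in WT, 20.3 to 39.8 in heterozygous and 12.0 to 42.6 in null libraries. The part of these cells in the ligand values was not tested except through the mesenchyme level. No fit took the other cell types into account. Results below are given with and without the mesenchyme level in the fit where this changes a call. Every WT library held more mesenchyme RNA than every heterozygote, so in that comparison such a fit cannot separate mesenchyme from genotype.

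The ligand genes lie on 7 different mouse chromosomes (build mm10, gene models of GENCODE M21). Fgf9 (ENSMUSG00000021974) spans chr14:58070547-58112720 on the plus strand, Fgf16 (ENSMUSG00000031230) chrX:105764279-105774939 on the plus strand, and Fgf20 (ENSMUSG00000031603) chr8:40279166-40308331 on the minus strand. Fgf10 (ENSMUSG00000021732) spans chr13:118669791-118792115 and Fgf3 (ENSMUSG00000031074) chr7:144838083-144844436, both on the plus strand. Fgf8 (ENSMUSG00000025219) spans chr19:45736798-45742915 and Fgf18 (ENSMUSG00000057967) chr11:33117430-33147400, both on the minus strand.

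Because Fgf9, Fgf16 and Fgf20 are close copies of one another, their sequences were compared for reads that could be shared. The stretch below lies in coding exon 2 of 3 of each gene, and is shown because, of all windows of its length within a single exon, it is where the 3 copies are most alike. Capitals in the Fgf16 and Fgf20 lines mark bases that differ from Fgf9, and capitals in the Fgf9 line mark bases at which either of the others differs.
Fgf9 (chr14:58083201-58083290, plus strand): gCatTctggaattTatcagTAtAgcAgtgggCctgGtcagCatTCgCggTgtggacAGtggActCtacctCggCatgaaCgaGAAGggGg
Fgf16 (chrX:105772518-105772607, plus strand): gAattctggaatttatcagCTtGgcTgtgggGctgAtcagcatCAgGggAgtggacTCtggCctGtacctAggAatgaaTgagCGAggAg
Fgf20 (chr8:40281125-40281214, minus strand): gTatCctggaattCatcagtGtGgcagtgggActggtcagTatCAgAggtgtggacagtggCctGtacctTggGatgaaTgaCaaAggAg

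In these 90 bases all 3 genes were identical at 64 positions, while Fgf16 differed from Fgf9 at 22 and Fgf20 at 18. Over the whole coding sequence Fgf9 and Fgf20 were identical at 70.6% of aligned bases, Fgf16 and Fgf20 at 69.3% and Fgf9 and Fgf16 at 69.0%, against 53.7% to 64.0% for the other 18 pairs of ligands. The longest run shared by any pair was 29 bases, between Fgf16 and Fgf20. No pair shared a word of 50 bases, the read length of the study, so no read within the coding sequences compared could fit 2 of the ligands without a mismatch. Exons of 2 ligands overlap another gene on the opposite strand, and whether reads were counted by strand is not given in the sources used here. Fgf20 shares 202 exon bases with Micu3, a regulator of mitochondrial calcium uptake, and Fgf10 shares 123 with the antisense transcript Gm16263, which had 0 to 3 counts per library.

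The study also designed PCR primers for Fgf10 and Fgf20, shown here because they fix which stretch of each transcript that assay reads. Each is written 5′ to 3′ as the primer reads, and the reverse primers are the complement of the transcript.
Fgf10 forward (exon 1, chr13:118715464-118715484): tttggtgtcttcgttccctgt
Fgf10 reverse (exon 1, chr13:118715577-118715595): tagctccgcacatgccttc
Fgf20 forward (across the junction of exons 1 and 2): aggatcacagtctcttcggtatc
Fgf20 reverse (exon 2, chr8:40281132-40281153): gtcattcatcccaaggtacagg

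The Fgf10 pair encloses 132 bases within a single coding exon. The Fgf20 pair encloses 101 bases and its forward primer fits only where the first 2 exons are joined. The PCR measurements were not analysed here.

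To compare the genes with each other, CPM was divided by the length of each gene's merged exons in kilobases. In WT ducts Fgf10 was the most abundant ligand at 31.4 ± 2.35 CPM per kilobase (mean ± SD, n = 3), followed by Fgf9 at 12.7 ± 0.478 and Fgf20 at 8.58 ± 1.53. The other 4 were far lower, with Fgf18 at 2.48 ± 0.142, Fgf16 at 1.75 ± 0.274, Fgf3 at 1.36 ± 0.295 and Fgf8 at 0.915 ± 0.543. The WT ranges of neighbours in this order were separate from Fgf10 down to Fgf16, whereas Fgf16 overlapped Fgf3 and Fgf3 overlapped Fgf8.

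The order was different without Prdm16. In null ducts Fgf20 stood at 21.9 ± 4.90 CPM per kilobase and Fgf10 at 21.04 ± 1.84, and their ranges overlapped. Fgf9 followed at 16.6 ± 1.56, with a range that overlapped that of Fgf20 but not that of Fgf10. Fgf16 came next at 6.50 ± 0.930 and overlapped Fgf18 at 4.64 ± 1.35. Heterozygous ducts kept Fgf10 on top at 29.4 ± 3.15, above Fgf20 at 15.98 ± 2.33 and Fgf9 at 14.8 ± 0.532, which overlapped each other.

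Genotypes were compared with the quasi-likelihood test of edgeR on the counts of all genes, and a gene was called when its Benjamini-Hochberg adjusted p was under 0.05 and its absolute log2 fold change over 0.5. In null against WT ducts 2 of the 7 ligands were called higher, Fgf16 and Fgf20, where 0.92% of the 17168 genes tested were called higher. A single ligand, Fgf10, was called lower, against 0.786% of all genes. In heterozygous against WT ducts only Fgf16 was called higher, against 0.0521% of 17269 genes, and none was called lower, against 0.0984% of all genes. Between null and heterozygous ducts none of the 7 was called in either direction by edgeR, against 0.293% of 17067 genes called higher and 0.322% called lower. For 3 of the 7, Fgf10, Fgf16 and Fgf20, the unadjusted p of that last comparison was under 0.05, as it was for 11.4% of all genes tested, DESeq2 called Fgf16, and limma-voom called none. The null and heterozygous comparisons against WT share their 3 WT libraries, and each is based on 3 embryos a side.

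**Figure D1:**
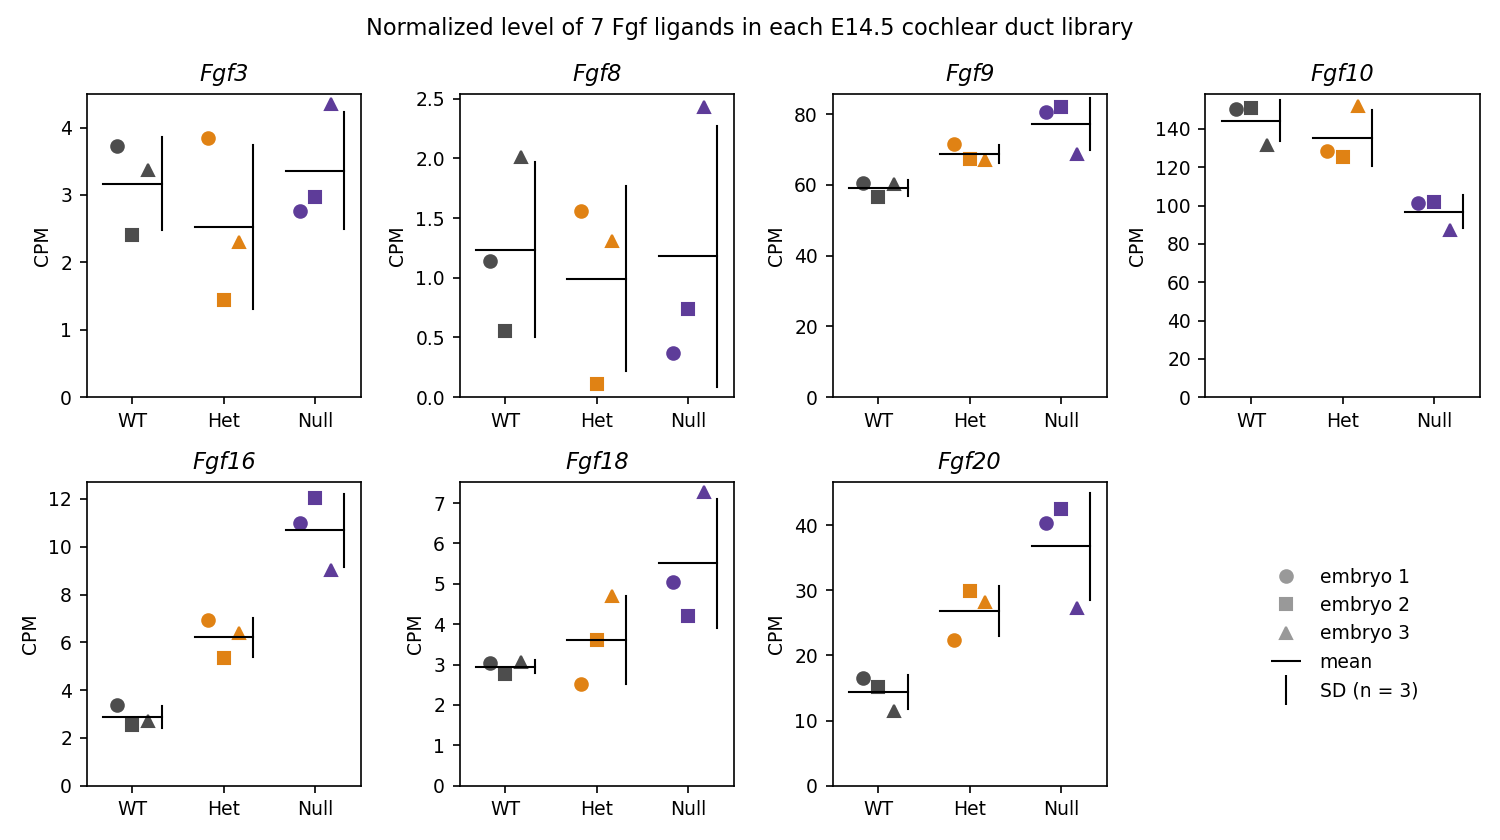
Normalized level (CPM, vertical axis) of each of the 7 ligands in the 3 WT, 3 heterozygote and 3 null libraries. Points are single embryos, horizontal bars the mean and vertical bars 1 SD. Fgf16 rises in steps with no overlap between genotypes (2.56 to 3.40 CPM in WT, 9.04 to 12.1 in null), Fgf10 is lower in all null embryos, and Fgf8 spreads over each genotype.

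Fgf16, a minor ligand of the WT duct, showed the steepest change. Its counts were 92, 65 and 79 in the WT libraries, 173, 148 and 175 in the heterozygotes and 266, 374 and 216 in the null. These correspond to 3.40, 2.56 and 2.69 CPM in WT, 6.92, 5.33 and 6.38 in heterozygous and 11.0, 12.1 and 9.04 in null ducts. The 3 genotypes did not overlap anywhere, and every heterozygote lay between every WT and every null embryo.

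Fgf16 rose in null ducts by a log2 fold change of 1.89 (SE 0.197), a 3.70-fold rise with a 95% interval of 2.70 to 5.08, at an adjusted p of 0.00494 by edgeR. It was called in all 6 fits that left out an embryo and under all 9 alternative analyses that kept every embryo. In heterozygotes it rose by 1.11 (SE 0.182), 2.16-fold with an interval of 1.63 to 2.86, at an edgeR adjusted p of 0.0498, just inside the threshold. That call held in 2 of the 6 fits without an embryo, those without WT embryo 1 or 3, and in 4 of the 9 alternatives. The highest adjusted p was 0.462, at a log2 fold change of 1.06 with the mesenchyme level in the fit. That level cannot be separated from genotype in this comparison. Null against heterozygous ducts gave 0.78 (SE 0.174, adjusted p = 0.129 by edgeR), with every null embryo above every heterozygote, and the call was made without null embryo 3 (0.89, adjusted p = 0.0433) and with the mesenchyme level in the fit (0.85, adjusted p = 0.0258).

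Fgf16 is on the X chromosome, and Y-linked RNA was high in 4 of the 9 libraries (WT 1, heterozygote 1, null 1 and null 2). With the Y-linked level in the fit, the log2 fold change of null against WT was 1.77 at an edgeR adjusted p of 0.00652. With the mesenchyme level in the fit it was 1.79, at an adjusted p of 0.0054.

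Fgf20, the prosensory ligand, was 2.55 times its WT level in null ducts. Its counts were 448, 384 and 339 in WT, 560, 828 and 774 in heterozygous and 979, 1318 and 653 in null libraries. As CPM these were 16.5, 15.1 and 11.5 in WT, 22.4, 29.8 and 28.2 in heterozygotes and 40.4, 42.5 and 27.3 in the null. All 3 null and all 3 heterozygous embryos lay above all WT embryos, whereas null embryo 3 fell within the heterozygous range.

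Fgf20 rose in null ducts by a log2 fold change of 1.35 (SE 0.203, 95% interval 0.88 to 1.82) at an adjusted p of 0.0194 by edgeR. It was called under all 9 alternatives that kept every embryo, but with 1 embryo left out only in the fit without null embryo 3, where it reached 1.53 at an adjusted p of 0.0035. In the other 5 such fits the log2 fold change was between 1.22 and 1.47 and the adjusted p between 0.0636 and 0.114. The heterozygous value was 0.90 (SE 0.149, interval 0.57 to 1.24) with an adjusted p of 0.0504 by edgeR, just outside the threshold, and 4 of 9 alternatives called it, DESeq2 among them, as did the fits without WT embryo 1 or 3. With the mesenchyme level in the fit the heterozygous value was 1.34 (adjusted p = 0.0339), but that level cannot be separated from genotype between these groups. Null against heterozygous ducts differed by 0.45 (SE 0.179, adjusted p = 0.397 by edgeR).

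Micu3, whose exons overlap those of Fgf20, was at 23.9, 21.4 and 25.8 CPM in WT and at 29.95, 32.9 and 27.6 in null libraries, a log2 fold change of 0.35 (SE 0.117) that edgeR did not call (adjusted p = 0.265). With reads counted without strand, those of the shared 202 bases could not be told apart.

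Fgf9, the third member of this subfamily, was abundant in every library and moved least. Its counts were 1639, 1437 and 1772 in WT, 1788, 1870 and 1842 in heterozygous and 1952, 2548 and 1645 in null libraries, or 56.6 to 60.5, 67.2 to 71.5 and 68.8 to 82.2 CPM. Each heterozygous and each null embryo was above all WT embryos, although the heterozygous and null ranges overlapped. The log2 fold change was 0.38 (SE 0.0902) in null and 0.22 (SE 0.0536) in heterozygous ducts against WT, with adjusted p of 0.101 and 0.104 by edgeR, so Fgf9 was not called in either. The 95% interval of the null value, 0.17 to 0.59, leaves out a rise of more than 1.51-fold. Without null embryo 3 the null value was 0.46 at an adjusted p of 0.0368, still under the threshold of 0.5 for the fold change. In 2 of the 9 alternatives with every embryo its adjusted p was also under 0.05. These were DESeq2 (0.38, adjusted p = 0.0252) and all 9 libraries in one edgeR fit (0.39, adjusted p = 0.0249). The heterozygous value passed in 1 of 9, edgeR without the filter (0.22, adjusted p = 0.0295). The fold threshold kept each of these from a call.

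Fgf10, a ligand of Kölliker's organ and the most abundant of the 7 in WT ducts, fell in the null. The study states that the early prosensory domain expresses Fgf10 too, so its level in the whole duct is not that of Kölliker's organ alone. Its counts were 4070, 3830 and 3871 in WT, 3217, 3480 and 4167 in heterozygous and 2462, 3157 and 2080 in null libraries. As CPM these were 150.2, 150.8 and 131.8 in WT, 128.7, 125.3 and 151.9 in heterozygotes and 101.6, 101.8 and 87.0 in the null. All null embryos were below all WT and all heterozygous embryos, and WT and heterozygotes overlapped each other.

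Fgf10 fell by 0.58 on the log2 scale in null against WT ducts (SE 0.0936), with a mean CPM at 67.1% of that in WT, at an adjusted p of 0.0254 by edgeR. It was called under all 9 alternatives with every embryo and in 2 of the 6 fits without one, those without null embryo 2 or 3. In the other 4 the adjusted p was between 0.0518 and 0.176, while the log2 fold change remained between -0.63 and -0.50 over all 6. In heterozygotes the value was -0.09 (SE 0.0795, 95% interval -0.27 to 0.09, adjusted p = 0.70 by edgeR), an interval that leaves out a fall as large as that in the null. With the mesenchyme level in the fit, which cannot be separated from genotype here, the heterozygous value changed sign, to 0.06. Null against heterozygous ducts gave -0.49 (SE 0.102, adjusted p = 0.107 by edgeR), with no overlap between the groups.

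Fgf3, the partner of Fgf10 in the early ear, was sparse. Its counts were 101, 61 and 99 in WT, 96, 40 and 63 in heterozygous and 67, 92 and 104 in null libraries, or 3.17 ± 0.687, 2.53 ± 1.22 and 3.36 ± 0.865 CPM (mean ± SD, n = 3). The genotypes overlapped in every pairing. The log2 fold change of null against WT was 0.08 with a 95% interval of -0.54 to 0.71 (adjusted p = 0.928 by edgeR), so that changes up to 1.63-fold upward and 0.688-fold downward were within reach of the error. Against WT the heterozygous value was -0.33 (interval -1.07 to 0.41), and it moved to -0.76 without heterozygote 1 and to -0.05 without heterozygote 2. It was -0.83 with the mesenchyme level in the fit, which cannot be separated from genotype in this comparison.

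Fgf18 stood higher in every null embryo than in any WT embryo without being called. Its counts were 82, 70 and 90 in WT, 63, 100 and 129 in heterozygous and 122, 130 and 174 in null libraries. In CPM the WT libraries were close together at 3.03, 2.76 and 3.06, the heterozygotes ranged from 2.52 to 4.70, and the null libraries were at 5.03, 4.19 and 7.28. The log2 fold change of null against WT was 0.90 (SE 0.245, interval 0.33 to 1.46) with an adjusted p of 0.162 by edgeR. DESeq2 called it (0.89, adjusted p = 0.0407). The highest null value belonged to embryo 3, the library rich in mesenchyme RNA, and without it the log2 fold change was 0.64 (adjusted p = 0.197). With the mesenchyme level in the fit it was 1.02 (adjusted p = 0.0724), and the part of mesenchyme in this result was not tested beyond these values.

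Fgf8, a ligand of inner hair cells that are only beginning to form at this stage, was the sparsest of the 7. Its counts were 31, 14 and 59 in WT, 39, 3 and 36 in heterozygous and 9, 23 and 58 in null libraries, and a count of 3, taken as the floor of a library, corresponds to 0.0967 to 0.126 CPM. Within each genotype the highest library held several times the lowest, and no 2 genotypes were separate. The log2 fold change of null against WT was -0.08 with an interval of -1.71 to 1.55 (adjusted p = 0.974 by edgeR), so that a 2-fold difference either way lay within the error. Its spread, 59.4% to 92.9% of the mean, was far above the 17.0% to 19.6% that counting alone gives.

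The spread also differed among the other ligands. Among WT embryos it was 5.71% of the mean for Fgf18 where counting alone gives 11.1%, and 21.7% for Fgf3, 3.76% for Fgf9, 7.50% for Fgf10, 15.6% for Fgf16 and 17.9% for Fgf20 against 10.7%, 2.49%, 1.60%, 11.3% and 5.06% from counting.

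**Figure D2:**
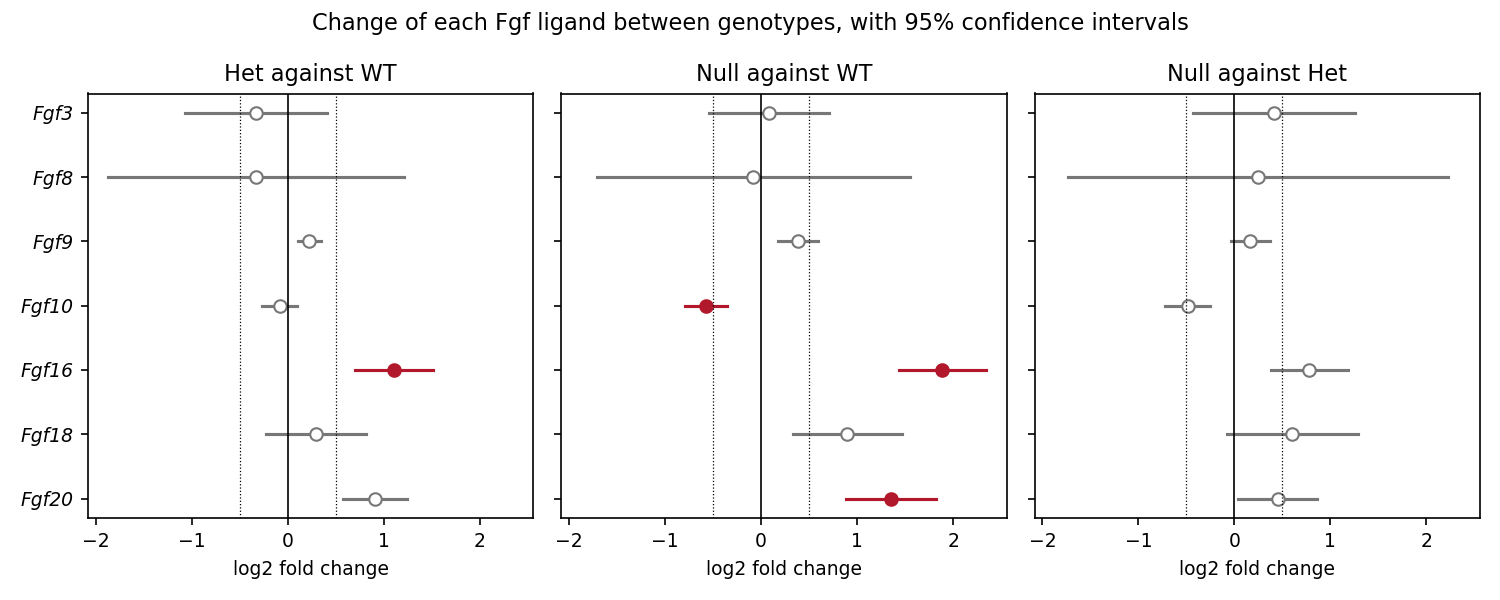
Log2 fold change (horizontal axis) of each ligand for heterozygote against WT, null against WT and null against heterozygote, with 95% confidence intervals from edgeR. Filled red points were called, and dotted lines mark a log2 fold change of 0.5 either way. Fgf16 at 1.89 and Fgf20 at 1.35 lie to the right and Fgf10 at -0.58 to the left in null against WT, and the intervals of Fgf8 are the widest.

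The place of the heterozygote between WT and null is given here for each ligand whose null and WT embryos did not overlap. Its mean CPM lay 42.6% of the way from WT to null for Fgf16 (38.1% to 48.3% when single embryos were left out), 55.6% for Fgf20 (45.9% to 65.4%) and 52.9% for Fgf9 (43.0% to 61.4%). For Fgf10 it lay 18.8% of the way (8.30% to 36.4%), and for Fgf18 25.8% (4.39% to 47.1%), a range that reaches both the Fgf10 and the Fgf16 values. Prdm16 itself had covered 35.9% of its fall in the heterozygote (31.6% to 39.5%). These shares are a description of 3 embryos a group, and no test of the difference between ligands was made. For Fgf3 and Fgf8, whose null and WT embryos overlapped, the same calculation gave -329% and 442%, outside the span from WT to null. How many of all genes had null and WT embryos without overlap was not counted. Such separation of a single gene cannot go below p = 0.1 in an exact two-sided permutation test of 3 against 3 embryos.

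Because one ligand fell while others rose, the make-up of the set was followed within each library, where library size and normalization drop out. The ratio of Fgf20 to Fgf10, both per kilobase, was 0.302, 0.275 and 0.2401 in WT, 0.477, 0.652 and 0.509 in heterozygous and 1.09, 1.14 and 0.861 in null libraries. The 3 genotypes did not overlap, and the mean ratio was 0.272 ± 0.0309 in WT, 0.546 ± 0.0932 in heterozygous and 1.03 ± 0.151 in null ducts (SD, n = 3). Fgf20 RNA thus exceeded Fgf10 RNA per kilobase in 2 of the 3 null libraries and in none of the other 6. An exact two-sided permutation test of 3 against 3 embryos cannot go below p = 0.1, so none is given for this ratio.

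Fgf10 made up 52.2%, 55.3% and 51.5% of the summed per-kilobase level of the 7 ligands in WT libraries, 42.5%, 41.0% and 44.6% in heterozygotes, and 29.1%, 28.4% and 29.0% in the null. The null embryos differed by less than 1 percentage point in this share, even though embryo 3 stood apart in the single genes. Fgf20 went from 14.4% ± 1.82 in WT to 23.2% ± 3.26 and 29.7% ± 4.18, and Fgf16 from 2.95% ± 0.337 to 5.50% ± 0.791 and 8.88% ± 0.509. Fgf9 kept 21.5% ± 1.54, 21.6% ± 1.94 and 22.7% ± 0.0873. The sum over the 7 was 59.2 ± 3.47 CPM per kilobase in WT, 68.8 ± 4.59 in heterozygous and 73.0 ± 6.72 in null ducts, and all null and heterozygous libraries lay above all WT libraries.

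**Figure D3:**
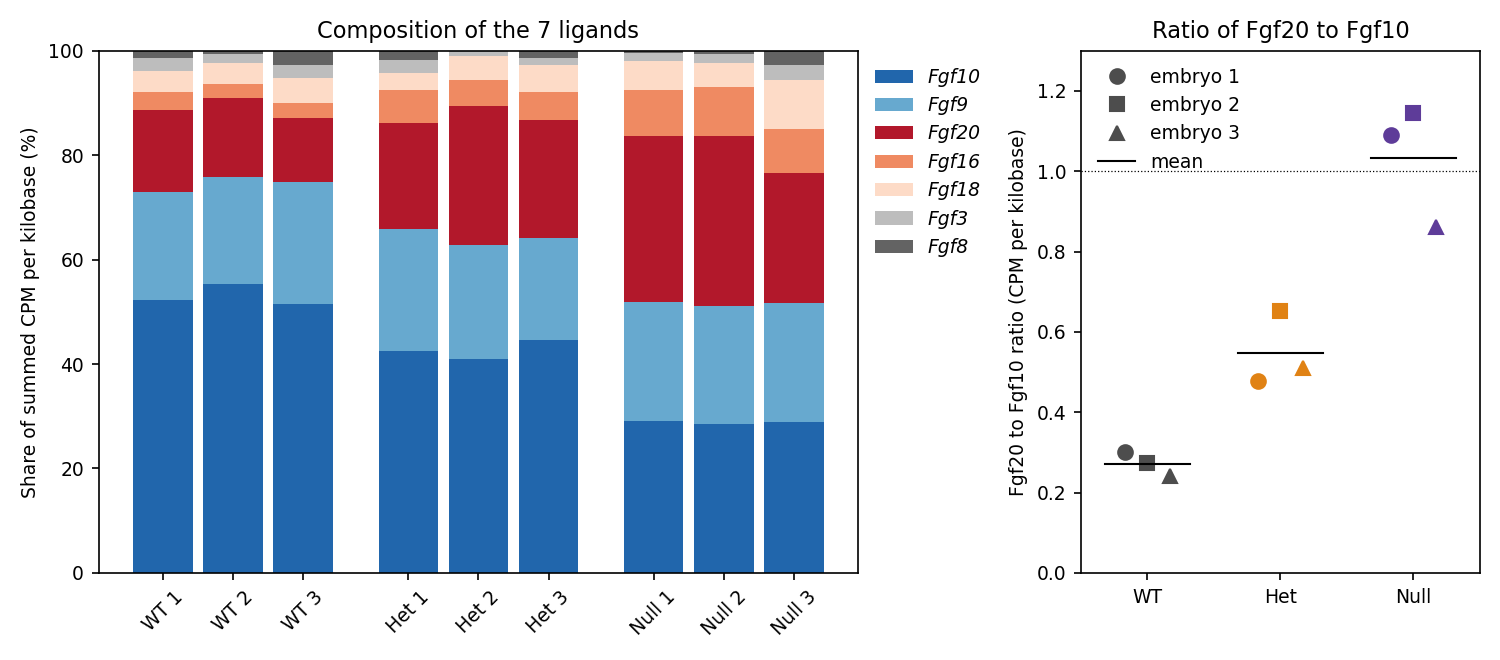
Left, the share of each ligand (%, stacked to 100) in the summed CPM per kilobase of the 7, for each of the 9 libraries. Right, the ratio of Fgf20 to Fgf10 in CPM per kilobase, with points for embryos, bars for the mean and a dotted line at equal levels. The Fgf10 share shrinks from 53.0% on average in WT to 28.8% in null ducts while the ratio passes from 0.272 to 1.03.

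Within the Fgf9 subfamily the balance shifted as well. Fgf9 gave 52.2%, 53.5% and 60.4% of the summed level of Fgf9, Fgf16 and Fgf20 in WT libraries and 36.0%, 35.1% and 40.5% in the null, with no overlap. Fgf20 gave 39.5%, 39.6% and 32.0% in WT and 50.1%, 50.3% and 44.5% in the null. The subfamily as a whole stood at 23.1 ± 1.75 CPM per kilobase in WT, 34.5 ± 1.38 in heterozygous and 44.99 ± 7.36 in null ducts.

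The other genes of the pathway were counted in fixed lists, and edgeR called none of them. Of 11 other secreted Fgf genes 8 could be tested, and in null against WT ducts none was called, 2 had an unadjusted p under 0.05, where 12.2% of all genes did, and DESeq2 and limma-voom called 1 each, out of 618 and 300 genes. Fgf2, a ligand without a signal peptide, was at 5.02 ± 0.848 CPM in WT and 9.29 ± 0.740 in null ducts (log2 fold change 0.89, edgeR adjusted p = 0.0595), and Fgf17, of the Fgf8 subfamily, was at 3.36 ± 0.260 and 2.16 ± 0.200 (-0.64, adjusted p = 0.237). Of 7 receptor and co-receptor genes 5 were tested and none was called, with 2 at an unadjusted p under 0.05, against the same 12.2% of all genes, and none called by DESeq2 or limma-voom. Fgfr1, a receptor needed in the sensory progenitors, stood at 347.4 ± 4.38 CPM in WT and 292.6 ± 30.9 in null ducts (-0.25, adjusted p = 0.302), and Fgfr2 at 264 ± 14.9 and 309.3 ± 8.78 (0.23, adjusted p = 0.243).

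The 10 feedback and target genes of FGF signalling were all tested, and again edgeR, DESeq2 and limma-voom called none in null against WT ducts, with 1 at an unadjusted p under 0.05 (12.2% of all genes were). Dusp6, the phosphatase that shuts down MAP kinase, had a log2 fold change of 0.43 (SE 0.185, edgeR adjusted p = 0.403), the inhibitor Spry2 0.41 (SE 0.177, adjusted p = 0.414) and the transcription factor Etv4 0.24 (SE 0.115, adjusted p = 0.47). The 5 positive and 5 negative values had a median of 0.06, next to 0.01 over all genes and 0.38 over the 7 ligands. Of 8 genes that modify heparan sulfate or carry FGFs outside the cell, 7 were tested and none was called by the 3 tools, with 1 at an unadjusted p under 0.05, where 12.2% of all genes were. In heterozygous against WT ducts edgeR and limma-voom called none of these 30 tested genes, 4 had an unadjusted p under 0.05 (13.1% of all genes did) and DESeq2 called 1, a receptor. Of those 4, 3 were among the 10 feedback and target genes, where Dusp6 stood at 0.60 (adjusted p = 0.126 by edgeR) and Spry2 at 0.54 (adjusted p = 0.197) against WT. Only 4 of these 10 had a positive heterozygous value and the median was -0.06, with Etv4 at -0.13 and Il17rd at -0.06. In null against heterozygous ducts edgeR and limma-voom again called none, 3 had an unadjusted p under 0.05 (11.4% of all genes did) and DESeq2 called 1, a ligand.

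Marker genes of the regions of the duct were summed in each library. Genes of Kölliker's organ had a summed level of 3808 to 4638 CPM in WT, 3639 to 4534 in heterozygous and 2120 to 2415 in null libraries, and edgeR called 7 of the 10 lower and 1 higher in null against WT ducts, against 0.786% and 0.92% of all genes. In heterozygous against WT ducts edgeR called 1 of the 10 higher, against 0.0521% of all genes, and DESeq2 called 2 (317 of all genes). Of the 10, 6 had an unadjusted p under 0.05 there, where 13.1% of all genes did. In null against heterozygous ducts edgeR called 6 lower, against 0.322% of all genes. Genes of the prosensory domain summed to 1067 to 1172, 1273 to 1307 and 1276 to 1585 CPM. In null against WT ducts edgeR called 3 of the 10 higher (Prox1, Lfng and Cdkn1b), against the same 0.92%. The study had already reported these 3 as higher in null ducts from the same libraries, and the lists were chosen with such results known. Counts of calls within the marker lists are thus descriptions and no independent support. Of 5 hair cell genes edgeR called 1 higher in null against WT ducts, where 0.92% of all genes were. This was Myo7a, at 17.0 CPM in WT and 35.9 in null ducts (1.08, adjusted p = 0.0257). Only 2 of the 5 had a positive log2 fold change, and the median was -0.01. Atoh1 stood at -0.29 and Pou4f3 at -0.27 (adjusted p = 0.688 and 0.875 by edgeR). Genes of the roof, the non-sensory epithelium that makes Fgf9, summed to 8227 to 9648, 9769 to 10292 and 11052 to 14413 CPM. Most of that sum is Oc90, an otoconial protein, at 7828 CPM in WT and 11329 in null ducts on average. Of its 8 genes edgeR and limma-voom called none in null against WT ducts, DESeq2 called 2 (618 of all genes), and 6 had an unadjusted p under 0.05, where 12.2% of all genes did. In null against heterozygous ducts edgeR called 1 of the 8 higher, the transcription factor Meis2 (0.64, adjusted p = 0.0323), against 0.293% of all genes. Genes of the outer sulcus, the lateral non-sensory epithelium, summed to 1234 to 1416, 1301 to 1561 and 1449 to 2030 CPM, and of the 5 edgeR and limma-voom called none in null against WT ducts, DESeq2 called 1, and 2 had an unadjusted p under 0.05, against the same 12.2%. Whether the ligands moved with the size of these regions was not tested.

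**Figure D4:**
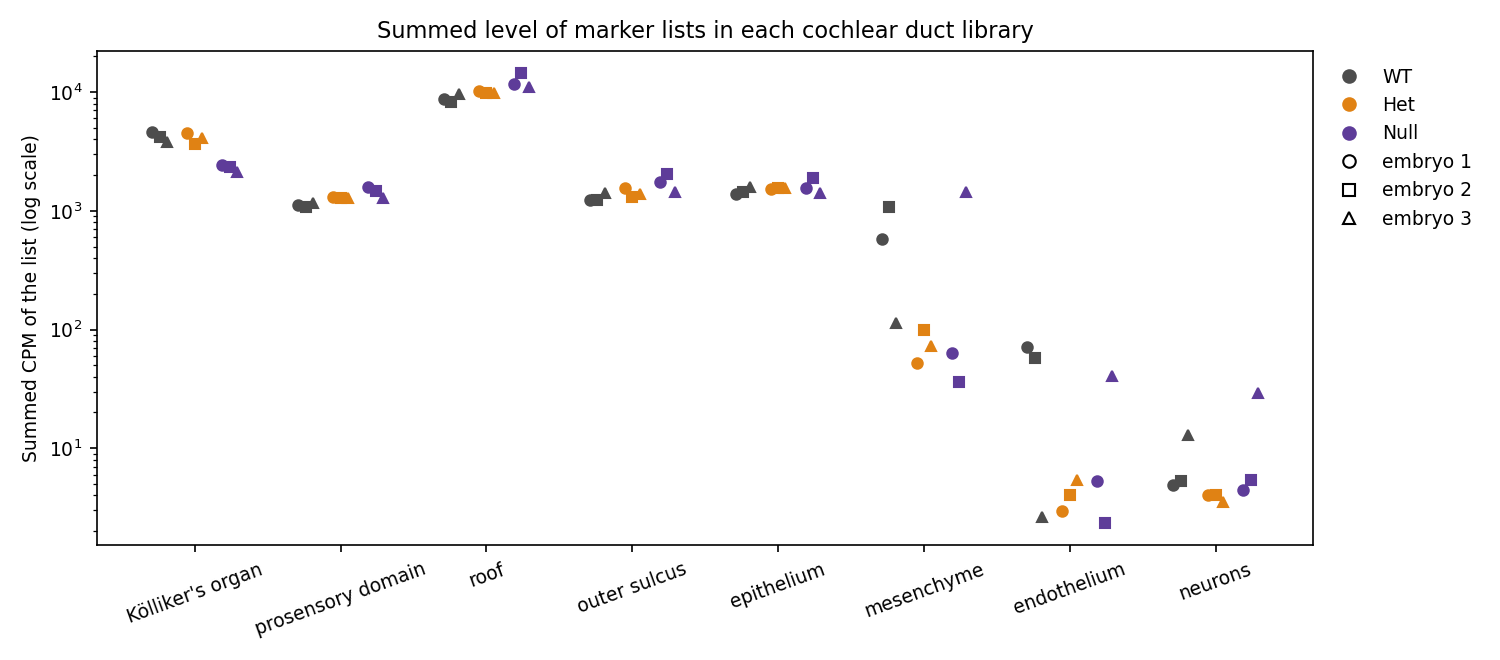
Summed CPM (vertical axis, log scale) of 8 lists of marker genes in each library, coloured by genotype and shaped by embryo number. Kölliker's organ is lower in the 3 null libraries (2120 to 2415 CPM) and the roof list, mostly Oc90, higher (11052 to 14413 CPM), while the mesenchyme list is high in null embryo 3 (1450 CPM) and in WT embryos 1 and 2 (583.1 and 1079 CPM).

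For each ligand called in null against WT ducts, the 5 genes with the most similar course over the 9 libraries were found by the root mean square distance of log2 CPM, each gene centred on its own mean, among 14812 genes with a mean above 1 CPM. For Fgf10 they included Prkd1, Pls1, Gm49602 and Atp1b1, at distances of 0.0825 to 0.108 where the median gene was at 0.321. Prkd1, a protein kinase D, was at 64.7, 59.8 and 44.6 CPM in WT, heterozygous and null ducts on average and Pls1, an actin-bundling protein, at 132.6, 126.3 and 90.7.

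For Fgf16 they were Lfng, Lrrn4, Sgk1, Syt6 and Scnn1b, at distances of 0.195 to 0.232 with a median gene at 0.796. Lfng, a modifier of Notch receptors made in the prosensory domain, was at 12.7, 21.5 and 34.3 CPM in WT, heterozygous and null ducts, and Scnn1b, a subunit of the epithelial sodium channel, at 7.64, 12.2 and 22.2. For Fgf20 they were Ddc, Clrn1, Tectb, Gm16046 and Prdm1, at 0.188 to 0.233 with a median gene at 0.62. Tectb, a protein of the tectorial membrane, was at 759.1, 1165 and 1453 CPM. These distances describe 9 libraries of 3 genotypes, which all genes share, and carry no test.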

How the data were processed

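RNA was measured in 9 libraries, 1 per embryo, grouped by labelled genotype. The authors prepared TruSeq mRNA libraries, sequenced 50-base single reads and aligned them to mm10. The submitters' processing notes name cutadapt 1.13, STAR and HTSeq 0.6.1p1, and the study's methods name Cufflinks and DESeq2. The deposited values are raw counts per Ensembl gene, not normalized. The annotation release and strand setting are not given in the sources used here. All 37 mitochondrial genes hold 0 counts. Gene models came from GENCODE M21, which names 54165 of the 54232 genes.

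Tests used edgeR 4.0.16 in R 4.3.3 with TMM, filterByExpr (minimum count 10), quasi-likelihood F-tests fitted to the 6 libraries compared, and Benjamini-Hochberg adjustment over all genes tested. SE was the log2 fold change over the root of F, and intervals are 95%. All 7 ligands passed the filter in every comparison. The procedure was tested on simulated data. The replicate libraries of each genotype differed by a chi-square per gene of 5.70 or more, so none was counted as a duplicate. Total counts of 24095322 to 30819118 and 3 embryos per genotype set the precision.

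The named genes are the 7 ligands, Prdm16, genes whose exons overlap a ligand, for each called ligand the 5 genes nearest in course (1 of them is not reported here), and up to 4 members of each list by adjusted p. Fgf11 to Fgf14 in the closing section fall outside this rule and were chosen after their values were seen. The members and lists were chosen with earlier results of these data known. Alternatives were DESeq2 1.42.0, limma-voom (limma 3.58.1), RLE scaling, no filter, a mean count over 100, all 9 libraries in one fit, the embryo number as a block, covariates for Y-linked and for mesenchyme genes, no fold threshold, and each embryo left out in turn. Primer sequences came from the study's own list and coding sequences from GENCODE M21.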

Additional observations from a re-analysis of the deposited data

How the results depend on the processing

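With edgeR 293 genes were called in null against WT ducts, 26 in heterozygous against WT and 105 in null against heterozygous ducts. DESeq2 called 618, 317 and 358, edgeR without a filter 476, 684 and 366, and all 9 libraries in one fit 468, 0 and 164. For the heterozygote the count was 45 without a fold threshold, 11 by limma-voom, 47 with the Y-linked covariate and 10 with the mesenchyme covariate, which gave 272 in null against heterozygous ducts. Leaving out each embryo in turn gave 68 to 446, 0 to 505 and 12 to 182 calls. The cause was not tested. Levels under RLE moved by less than 1 SD.

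Among single ligands the sign changed only for Fgf3, Fgf8 and Fgf10. In null against WT ducts Fgf8 was at 0.01 (0.00667) with the Y-linked covariate, and over the fits without an embryo Fgf3 ranged from -0.14 to 0.22 and Fgf8 from -1.13 to 0.46. The heterozygous value of Fgf8 ranged from -0.80 to 0.21 without single embryos and was -0.85 by limma-voom and -1.82 with the mesenchyme covariate, and that of Fgf10 was 0.06 (0.0556) with the mesenchyme covariate. Null against heterozygous, Fgf8 was at -0.39 with the mesenchyme covariate and from -0.80 to 0.72 without single embryos. A mean count over 100 left Fgf3 and Fgf8, and Fgf18 in heterozygous against WT ducts, without a value.

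The embryos share numbers across genotypes only as labels. Deviations of same-numbered embryos correlated at 0.01, -0.14 and -0.28 in null and WT, at 0.20, 0.11 and -0.06 in heterozygotes and WT and at 0.14, -0.12 and 0.08 in null and heterozygotes, and 0, 3 and 3 of 6 samples correlated best with their own number. With the replicate number as a block 133, 197 and 52 genes were called. The ligand calls in null against WT kept their side of the threshold under the block, and Fgf20 was also called in heterozygotes (0.91, edgeR adjusted p = 0.0275).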

Other observations

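Outside the secreted ligands, Fgf14 had a larger log2 fold change in null against WT ducts than any of the 7. It encodes an intracellular FGF homologous factor, a partner of sodium channels that is not secreted and does not act as a ligand of FGF receptors, and it was picked out after its values were seen. Its counts were 17, 7 and 10 in WT, 45, 24 and 28 in heterozygous and 115, 145 and 116 in null libraries, or 0.628, 0.276 and 0.340, 1.80, 0.864 and 1.02, and 4.74, 4.67 and 4.85 CPM. The 3 genotypes did not overlap. Fgf14 rose in null against WT ducts by a log2 fold change of 3.50 (SE 0.326, edgeR adjusted p = 0.00316) and in null against heterozygous ducts by 1.95 (SE 0.298, adjusted p = 0.0337). The heterozygous value against WT was 1.55 (SE 0.435, adjusted p = 0.151), which edgeR did not call.

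The other 3 genes of this intracellular subfamily had smaller values in null against WT ducts and were not called by edgeR. Fgf11 was at 30.5 ± 1.38 CPM in WT and 38.5 ± 3.38 in null ducts (log2 fold change 0.33, adjusted p = 0.209), Fgf13 at 7.43 ± 0.478 and 8.12 ± 1.38 (0.13, adjusted p = 0.819), and Fgf12 at 0.503 ± 0.244 and 0.577 ± 0.336 (0.17, adjusted p = 0.927).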
